A study of Mus musculus with 27 samples.

Results

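Homeostatic microglia genes were followed in RNA sequencing libraries of the mouse brain. They are the 9 genes P2ry12, P2ry13, Tmem119, Cx3cr1, Sall1, Siglech, Gpr34, Olfml3 and Selplg, found by symbol in the gene annotation among 55487 rows of the deposited count table, and all 9 passed the filter on low counts that left 20271 genes for testing. Male C57Bl/6J wild-type mice of 8 weeks received a unilateral infusion into the right lateral ventricle from an osmotic pump for 14 days at 0.25 μl/h. The pump held PBS, a human IgG control called pCtrl, or α-IgLON5#1, the polyclonal IgLON5-specific antibodies purified from plasma of 1 patient with anti-IgLON5 disease. The hippocampus and cortex opposite to the infused side were sequenced, with 5 PBS, 4 pCtrl and 4 α-IgLON5#1 hippocampi and 5 PBS, 5 pCtrl and 4 α-IgLON5#1 cortices. These 27 libraries came from 14 mice by the numbers in their labels, and all mice shared the pump surgery. The α-IgLON5#1 mice thus model exposure to the antibodies of 1 donor, and the labels call the control a monoclonal IgG whereas the study's methods describe IgG from serum. The libraries hold 1.94e+07 to 5.86e+07 counts each, and the 9 genes together took 5092 to 14359 counts per library.

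Microglia are the resident macrophages of the brain. In the undisturbed brain they express a set of receptors, surface proteins and a transcription factor. Most of these help to distinguish them from macrophages that enter from blood, but monocytes also express Cx3cr1 and Selplg. Signalling by transforming growth factor-beta (TGF-beta) helps to maintain the set. When microglia respond to injury, antibody or protein deposits, some of these homeostatic genes are commonly lowered while genes for phagocytosis, complement and antigen presentation rise. P2ry12 and P2ry13 are G protein-coupled receptors for ADP, and P2ry12 directs microglial processes toward sites of ATP release. Gpr34 is a related receptor for lysophosphatidylserine, and Cx3cr1 is the receptor for the neuronal chemokine fractalkine (Cx3cl1). Tmem119 is a microglial membrane protein of unclear function, Siglech is a lectin that signals through the adaptor Tyrobp, and Selplg (PSGL-1) is the ligand of selectins. Olfml3 is a secreted glycoprotein, and Sall1 is a zinc finger transcription factor that maintains microglial identity.

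Positions are those of the GRCm38 genome (GENCODE M21). P2ry12 (chr3:59216272-59262871, minus strand, ENSMUSG00000036353.13) and P2ry13 (chr3:59207892-59210882, minus strand, ENSMUSG00000036362.2) are neighbors within Med12l, which is transcribed from the opposite strand and shares 9 exon bases with P2ry12 and 0 with P2ry13. Tmem119 (chr5:113793729-113800516, minus strand) and Selplg (chr5:113818536-113832644, minus strand) are also close neighbors. Cx3cr1 (chr9:119901616-120069879, minus strand) shares 78 exon bases with the antisense gene Gm33858. The remaining genes are Sall1 (chr8:89027235-89044162, minus strand), Siglech (chr7:55768178-55778925, plus strand), Gpr34 (chrX:13632089-13640858, plus strand, within Cask on the other strand with 0 shared exon bases) and Olfml3 (chr3:103722222-103738001, minus strand). The strand setting of the authors' counting was not given, so reads from the shared exon bases cannot be assigned with certainty. They are few beside the 2546 exon bases of P2ry12 and the 4505 of Cx3cr1.

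The RefSeq promoter table (GRCm38.p6) held 6 of the 9 genes in 8 windows. Its start sites can differ from the GENCODE positions above, and that of Cx3cr1 lies within the gene's span and that of P2ry12 beyond it. The 250 bases before the start site are shown for the neighboring receptor genes P2ry12 (chr3:59262986-59263235) and P2ry13 (chr3:59210883-59211132), whose estimates had opposite signs in the hippocampus, and for Cx3cr1 (chr9:120068297-120068546) and Olfml3 (chr3:103738002-103738251), which rose there. All are printed 5′ to 3′ on the minus strand, in which each gene is read, and capitals mark motif matches.
P2ry12: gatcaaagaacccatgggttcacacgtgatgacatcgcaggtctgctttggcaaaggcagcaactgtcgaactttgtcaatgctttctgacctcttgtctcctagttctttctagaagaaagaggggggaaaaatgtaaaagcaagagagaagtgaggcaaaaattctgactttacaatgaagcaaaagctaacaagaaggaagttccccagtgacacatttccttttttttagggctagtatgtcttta
P2ry13: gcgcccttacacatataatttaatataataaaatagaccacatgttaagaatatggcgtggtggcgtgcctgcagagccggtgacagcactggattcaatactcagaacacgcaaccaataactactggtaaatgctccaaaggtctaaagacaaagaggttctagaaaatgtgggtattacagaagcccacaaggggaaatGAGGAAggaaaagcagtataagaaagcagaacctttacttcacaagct
Cx3cr1: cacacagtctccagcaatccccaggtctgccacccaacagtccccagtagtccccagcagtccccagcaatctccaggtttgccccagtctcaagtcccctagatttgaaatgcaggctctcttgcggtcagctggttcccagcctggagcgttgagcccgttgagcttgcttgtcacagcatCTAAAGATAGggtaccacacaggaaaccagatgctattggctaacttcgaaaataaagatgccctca
Olfml3: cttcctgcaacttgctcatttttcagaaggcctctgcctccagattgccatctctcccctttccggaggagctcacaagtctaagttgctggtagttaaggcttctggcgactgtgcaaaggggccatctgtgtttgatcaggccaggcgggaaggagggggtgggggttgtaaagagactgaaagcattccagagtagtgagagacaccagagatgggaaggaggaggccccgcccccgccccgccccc
On both strands, the windows of the 6 genes were searched for the ETS-type letters GAGGAAGT and GAGGAA of the macrophage factor PU.1 (the shorter lies within the longer), the ETS-IRF composite (GGAA, any base, TGAAA), GTCTAGAC (SMAD), the MEF2 frame (CTA, any 4 bases, TAG), TGANTCA (AP-1) and TGTGGTTT (RUNX). GAGGAA was found 48 bases before the start site of P2ry13, and 23.3% of all 32851 promoter windows hold it. The MEF2 frame began 67 bases before the start site of Cx3cr1, with AAGA as its 4 free bases, and 3.20% of all windows hold it. Such a frame is no proof of a MEF2 site, and binding was not tested. The other letters had no match in the 8 windows, and they occur in 0.167% (GTCTAGAC) to 6.75% (TGANTCA) of all windows.

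Levels are given as CPM, which are counts scaled to a common library size with TMM factors, and levels between genes as CPM per kilobase of exon. In the 4 control groups the order of the mean levels per kilobase began with P2ry12, Cx3cr1, Tmem119 and Selplg. In PBS hippocampi these were 14.8 ± 2.55, 11.5 ± 0.684, 8.58 ± 1.20 and 6.23 ± 0.789 CPM per kilobase (mean ± SD, n = 5). There Cx3cr1 and Tmem119 did not overlap in range, whereas P2ry12 and Cx3cr1 did, and the lower genes followed closely from Gpr34 at 5.75 ± 0.913 to Olfml3 at 3.54 ± 0.346. In α-IgLON5#1 hippocampi the order began with Cx3cr1 at 22.9 ± 7.35, Tmem119 at 15.4 ± 5.06 and P2ry12 at 11.8 ± 3.24 CPM per kilobase (n = 4), and each of these overlapped with its neighbor in the order within their SDs. Cx3cr1, Tmem119 and P2ry12 came in the same order in α-IgLON5#1 cortices, at 18.1 ± 2.86, 11.9 ± 2.93 and 11.7 ± 3.75. Olfml3, last of the 9 in all 4 control groups, was at the fifth place in both α-IgLON5#1 groups.

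**Figure D1:**
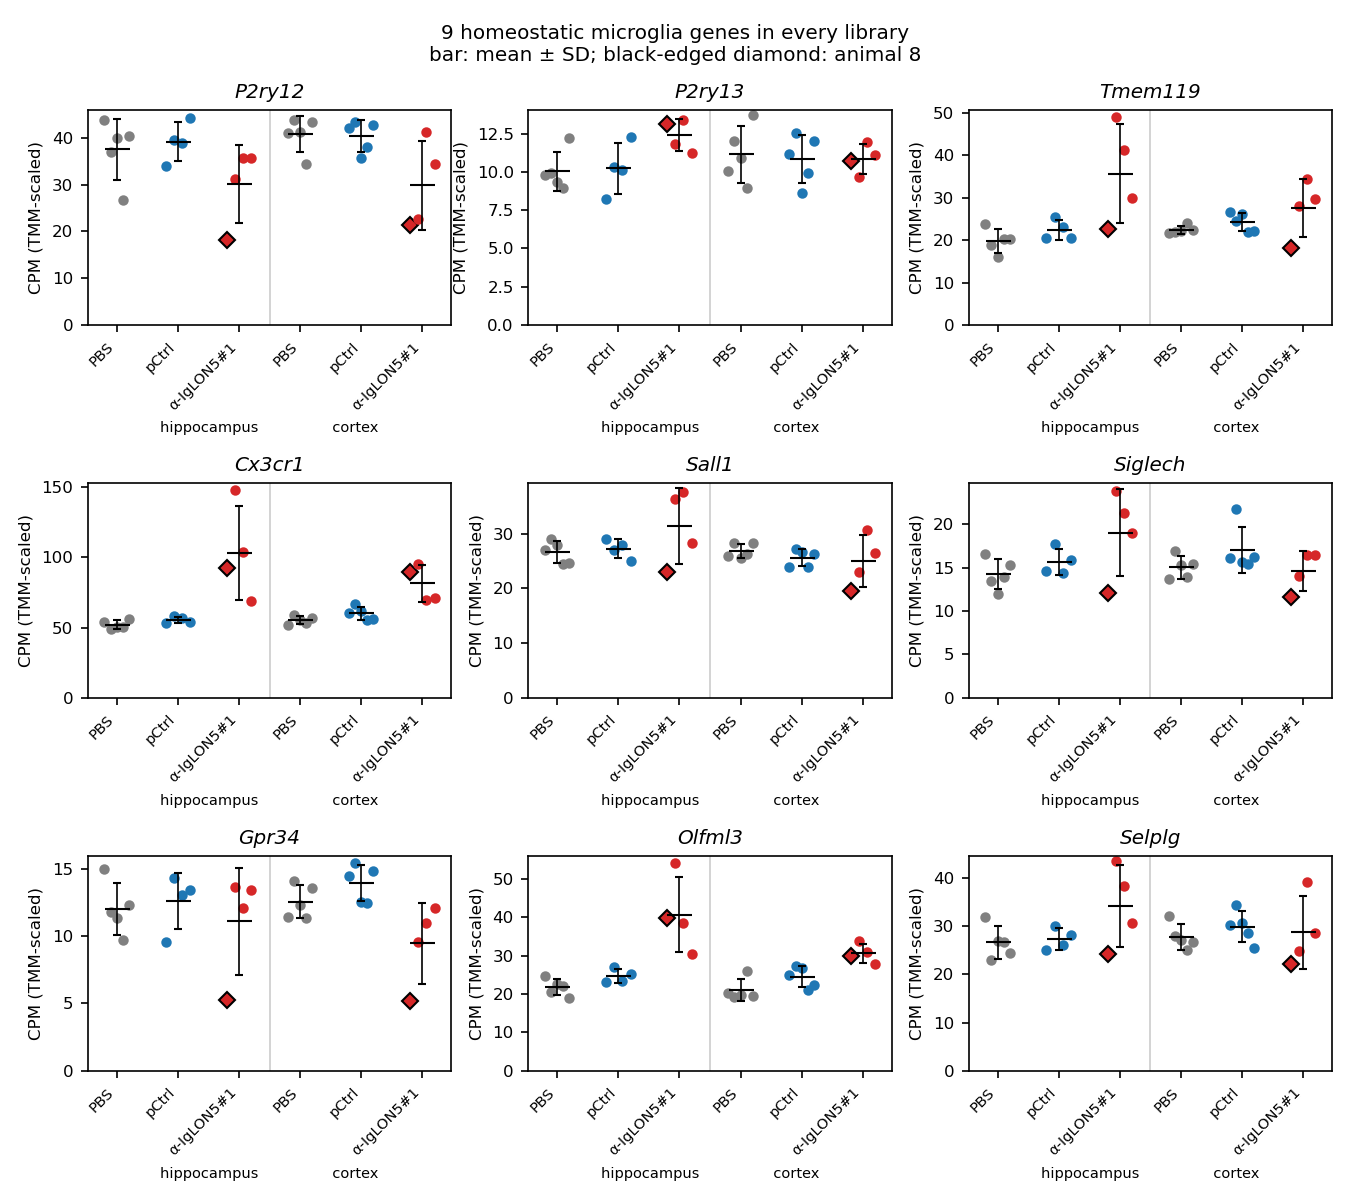
Levels of the 9 homeostatic microglia genes in all 27 libraries, in TMM-scaled CPM on a linear axis from 0, with 1 point per library, the mean and SD of each group as black bars, and the libraries of animal 8 as black-edged diamonds. Cx3cr1 and Olfml3 lie above both control groups in every α-IgLON5#1 hippocampus, while animal 8 has the lowest P2ry12 and Gpr34 in both tissues.

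In hippocampi of α-IgLON5#1 mice, Cx3cr1, Olfml3 and Tmem119 rose against pCtrl, by 1.85-fold, 1.64-fold and 1.59-fold. The other 6 genes did not pass the test, with log2 fold changes from -0.37 (P2ry12) to 0.32 (Selplg), and no gene of the set fell or changed more than 2-fold. Across all tested genes 4.23% were called higher and 2.78% lower in this comparison (edgeR's quasi-likelihood test, Benjamini-Hochberg adjusted p under 0.05), beside 3 and 0 of the 9. The median log2 fold change of the 9 genes was 0.28 and that of all tested genes 0.0012.

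Cx3cr1, the fractalkine receptor, had 92.4, 147.8, 103.4 and 68.7 CPM in the hippocampi of α-IgLON5#1 animals 8, 9, 16 and 17. It had 53.2, 57.9, 56.9 and 54.3 CPM in pCtrl animals 10, 15, 37 and 75, and 54.1, 48.9, 50.6, 50.1 and 56.3 CPM in PBS animals 14, 32, 33, 38 and 74. Every α-IgLON5#1 hippocampus was above every control, with animal 9 highest and animal 17 nearest to the controls. Against pCtrl it was higher by 0.89 on the log2 scale (standard error 0.14, adjusted p = 0.000113) and against PBS by 0.98 (standard error 0.13, adjusted p = 7.09e-06). Both held without any single library, with log2 fold changes of 0.66 to 1.04 and 0.75 to 1.14.

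Olfml3, the secreted glycoprotein, had 39.8, 54.2, 38.6 and 30.4 CPM in α-IgLON5#1 animals 8, 9, 16 and 17, against 23.2, 27.2, 23.4 and 25.3 CPM in the pCtrl hippocampi. The PBS hippocampi had 24.7, 20.5, 22.6, 22.2 and 19.1 CPM. The groups again did not overlap, and the order of the α-IgLON5#1 animals was led by animal 9 and closed by animal 17, as for Cx3cr1. On the log2 scale it was higher by 0.71 (standard error 0.13, adjusted p = 0.000632) against pCtrl and by 0.90 (standard error 0.12, adjusted p = 9.41e-06) against PBS. Cx3cr1 and Olfml3 were the 2 genes of the set whose α-IgLON5#1 hippocampi all lay above all pCtrl and all above all PBS hippocampi, beside 6.68% and 4.49% of all tested genes.

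Tmem119, the microglial membrane protein, had 22.5, 48.9, 41.2 and 30.0 CPM in α-IgLON5#1 hippocampi and 20.5, 25.3, 23.1 and 20.6 CPM in pCtrl hippocampi. The other 3 animals were above all controls, while animal 8 lay within the pCtrl range. Its level rose by 0.67 on the log2 scale against pCtrl (standard error 0.17, adjusted p = 0.0176) and by 0.85 against PBS (standard error 0.16, adjusted p = 0.00112). The call against pCtrl was lost without animal 9 (0.49, adjusted p = 0.114) or without pCtrl animal 10 (0.63, adjusted p = 0.0644), and when the 2 compared groups were fitted alone (0.67, adjusted p = 0.135), while that against PBS held without any single library. A tissue composition score, the mean log2 CPM of 100 genes higher in cortex minus that of 100 genes higher in hippocampus, centred within each tissue, was 0.015 to 1.68 in the pCtrl hippocampi, -0.86 to 0.10 in the α-IgLON5#1 and -0.85 to -0.05 in the PBS hippocampi. With this score as a covariate the log2 fold changes against pCtrl were 0.69 for Cx3cr1 (adjusted p = 0.0328), 0.54 for Olfml3 (adjusted p = 0.0885) and 0.60 for Tmem119 (adjusted p = 0.288).

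P2ry12, the ADP receptor, stood lowest in 1 animal. It had 18.2, 31.1, 35.6 and 35.6 CPM in α-IgLON5#1 animals 8, 9, 16 and 17, 33.9, 39.6, 38.8 and 44.2 CPM in pCtrl, and 43.8, 37.0, 39.9, 26.8 and 40.4 CPM in PBS hippocampi. Animal 8 was the lowest of 13 hippocampi and PBS animal 38 the second, and the ranges of the groups overlapped. Its log2 fold change was -0.37 (95% interval -0.75 to 0.0081, adjusted p = 0.241) against pCtrl and -0.31 (95% interval -0.67 to 0.05, adjusted p = 0.422) against PBS. Its neighbor P2ry13 had 13.1, 11.8, 13.4 and 11.3 CPM in α-IgLON5#1 hippocampi and 8.22 to 12.3 CPM in the controls, with log2 fold changes of 0.28 and 0.30 (adjusted p = 0.218 and 0.225). Between these neighbors the estimates had opposite signs, and neither passed the test.

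Gpr34, the lysophosphatidylserine receptor, had 5.27 CPM in animal 8 and 13.6, 12.1 and 13.5 CPM in animals 9, 16 and 17, against 9.56 to 14.3 CPM in pCtrl and 9.73 to 15.0 CPM in PBS hippocampi. Animal 8 was thus below all other hippocampi, and the other 3 animals were within the control range. The log2 fold change against pCtrl was -0.18 (95% interval -0.63 to 0.28, adjusted p = 0.695), and it was 0.05 without animal 8. In Siglech, Sall1 and Selplg, animal 8 was lowest of the group and animals 9 and 16 were above all controls. Siglech had 12.1, 23.8, 21.3 and 18.998 CPM, Sall1 had 23.03, 36.4, 37.6 and 28.3 CPM, and Selplg had 24.2, 43.4, 38.4 and 30.7 CPM in animals 8, 9, 16 and 17. In pCtrl hippocampi these genes ranged from 14.3 to 17.7, from 24.9 to 29.0 and from 25.1 to 30.0 CPM. Their log2 fold changes were 0.28, 0.20 and 0.32, with adjusted p-values of 0.274, 0.331 and 0.216.

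Against PBS, the same 3 genes of the set were called higher and 0 lower, beside 3.81% and 0.474% of all tested genes. The median log2 fold change of the 9 was 0.36, against -0.0066 for all genes. This comparison shares its α-IgLON5#1 libraries with that against pCtrl. All α-IgLON5#1 mice have numbers from 8 to 17, as do 4 of the 10 control mice. Among hippocampi of animals 8 to 17 alone, with 2 pCtrl libraries (10 and 15), the log2 fold changes against pCtrl were 0.89 for Cx3cr1, 0.69 for Olfml3 and 0.64 for Tmem119, with adjusted p-values of 0.145, 0.126 and 0.357. What the numbers stand for beyond the mouse is not given.

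Animal 8 stood apart within the α-IgLON5#1 group. It had the lowest P2ry12, Sall1 and Gpr34 of all hippocampi, and the lowest P2ry12, Tmem119, Sall1, Siglech, Gpr34 and Selplg of all cortices, but Cx3cr1 of 92.4 and 89.8 CPM and Olfml3 of 39.8 and 29.9 CPM, above all controls in both tissues. Its hippocampal library was also the shallowest α-IgLON5#1 hippocampus, with 1.94e+07 counts, close to the 2.01e+07 of animal 9. Markers of monocytes and neutrophils (Ly6c2, Ccr2, Plac8, Chil3, S100a8, S100a9, Ngp and Camp) summed to 26.4 CPM in its hippocampus and 40.8 CPM in its cortex, against 3.88 to 10.5 and 3.38 to 9.23 CPM in the other α-IgLON5#1 animals. Its sums of border macrophage markers (41.7 and 50.4 CPM) and of lymphocyte markers (6.98 and 8.47 CPM) were also the highest of all hippocampi and of all cortices, and the part of these cells in its homeostatic levels was not tested. In an alternative added after seeing the data, both libraries of animal 8 were left out. In the hippocampus 4 genes then passed against pCtrl, namely Cx3cr1 (0.93), Tmem119 (0.84), Olfml3 (0.72) and Siglech (0.45, adjusted p = 0.0328), beside 2.93% of all genes called higher. Against PBS 6 passed, these 4 with Tmem119 at 1.01, and also Sall1 (0.36, adjusted p = 0.0223) and Selplg (0.49, adjusted p = 0.0283), beside 3.35% of all genes. In the cortex Olfml3 alone passed against PBS (0.56, adjusted p = 0.0201), beside 2.15% of all genes called higher, and against pCtrl the lowest adjusted p of the 9 was 0.225 (Cx3cr1, 0.39), where 1.83% of all genes were called higher. In the hippocampus P2ry12 stayed below 0 at -0.20 against pCtrl and -0.14 against PBS, with adjusted p-values of 0.548 and 0.813.

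**Figure D2:**
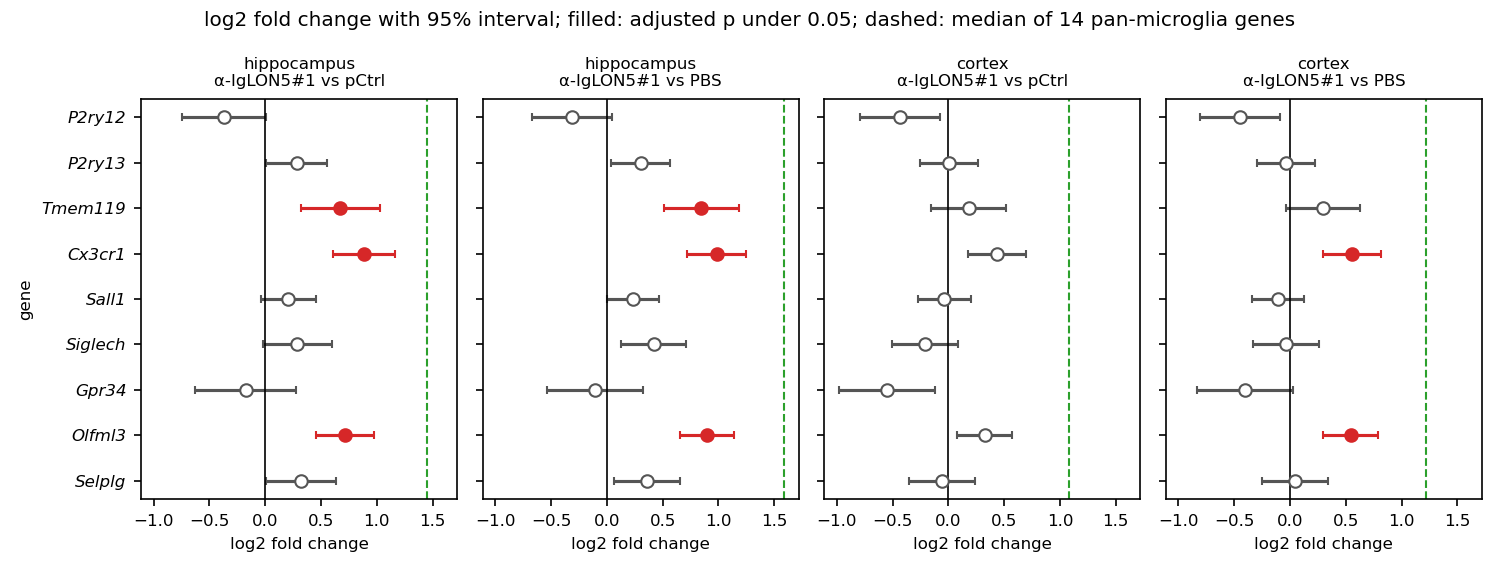
Log2 fold changes of the 9 genes in 4 comparisons of α-IgLON5#1 with a control, with 95% intervals, filled red where the adjusted p was under 0.05 and open where it was not. The dashed green line is the median of 14 pan-microglia genes, at 1.45, 1.59, 1.08 and 1.22 from left to right, and every point lies to the left of it.

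In cortices of α-IgLON5#1 mice no gene of the set was called against pCtrl, and Cx3cr1 and Olfml3 rose against PBS. The shares of all tested genes called higher were 3.01% against pCtrl and 2.97% against PBS, and 0.449% and 0.0740% were called lower. The median log2 fold change of the 9 genes was -0.04 in each comparison. Against pCtrl, edgeR gave 4 of the 9 genes an unadjusted p under 0.05 (Cx3cr1, Olfml3, P2ry12 and Gpr34), beside 15.4% of all genes, and DESeq2 called 1, Cx3cr1, where it called 4.52% of all genes in either direction.

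Cx3cr1 had 89.8, 95.2, 69.9 and 71.0 CPM in the cortices of animals 8, 9, 16 and 17, and 60.5, 67.1, 61.5, 55.6 and 56.3 CPM in pCtrl animals 10, 11, 15, 37 and 75. The PBS cortices had 51.7, 58.8, 55.5, 53.4 and 57.1 CPM. Every α-IgLON5#1 cortex was above every control cortex, and animals 8 and 9 were clearly above animals 16 and 17. The log2 fold change was 0.44 against pCtrl (95% interval 0.17 to 0.70, adjusted p = 0.0580) and 0.56 against PBS (95% interval 0.29 to 0.82, adjusted p = 0.00884). The call against pCtrl was made without animal 16 (adjusted p = 0.0290) or animal 17 (adjusted p = 0.0436), and that against PBS was lost without animal 8 (adjusted p = 0.0609) or animal 9 (adjusted p = 0.0550).

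Olfml3 had 29.9, 33.9, 31.0 and 27.9 CPM in α-IgLON5#1 cortices, 20.96 to 27.2 CPM in pCtrl and 19.3 to 26.04 CPM in PBS cortices. It was the other gene of the set with every α-IgLON5#1 cortex above every control cortex, and its log2 fold change was 0.32 against pCtrl (95% interval 0.08 to 0.57, adjusted p = 0.158) and 0.54 against PBS (95% interval 0.30 to 0.79, adjusted p = 0.00578). Among all tested genes, 3.68% had all α-IgLON5#1 cortices above all pCtrl cortices and 3.14% above all PBS cortices. Tmem119, higher in the hippocampus, had 18.2, 27.9, 34.4 and 29.6 CPM in α-IgLON5#1 cortices and 21.9 to 26.6 CPM in pCtrl cortices, with a log2 fold change of 0.18 (adjusted p = 0.652).

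P2ry12 was low in 2 of the 4 α-IgLON5#1 cortices, with 21.3 and 22.6 CPM in animals 8 and 9 and 41.1 and 34.3 CPM in animals 16 and 17. The pCtrl cortices had 42.1, 43.4, 35.7, 38.0 and 42.7 CPM, and the PBS cortices 41.1, 43.8, 41.2, 34.3 and 43.3 CPM. Animals 8 and 9 were well below all 10 control cortices, animal 17 lay at the level of the lowest control (34.30 against 34.33 CPM), and animal 16 was within the range of the controls. The log2 fold changes were -0.43 against pCtrl (95% interval -0.79 to -0.07, adjusted p = 0.213) and -0.45 against PBS (95% interval -0.81 to -0.09, adjusted p = 0.309). Without animal 16 they were -0.63 and -0.64 and passed (adjusted p = 0.0380 and 0.0388), and without animal 8 they were -0.30 and -0.31 and did not.

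Gpr34 had 5.16, 9.60, 11.0 and 12.1 CPM in α-IgLON5#1 cortices and 14.5, 15.4, 12.6, 12.5 and 14.8 CPM in pCtrl cortices. All α-IgLON5#1 cortices were below all pCtrl cortices, which 2.67% of all tested genes showed. The PBS cortices, at 11.4 to 14.1 CPM, overlapped with animal 17 alone. The log2 fold change was -0.55 against pCtrl (95% interval -0.98 to -0.12, adjusted p = 0.174) and -0.40 against PBS (adjusted p = 0.586), and without animal 8 it was -0.35 and -0.20. Sall1, Siglech, Selplg and P2ry13 had log2 fold changes of -0.21 to 0.05 in the cortex against either control. In each of them but P2ry13, animal 8 again had the lowest level of all 14 cortices.

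The effect of α-IgLON5#1 did not pass a test of difference between tissues for any of the 9 genes. This test did not pair the tissues of a mouse, and with the mouse as a block no call of the 9 genes changed. The hippocampal minus cortical log2 fold change was above 0 for all 9, from 0.06 (P2ry12) to 0.50 (Siglech) against pCtrl and from 0.13 (P2ry12) to 0.55 (Tmem119) against PBS. The lowest adjusted p-values of this interaction, from edgeR, were 0.369 and 1.00, and 4 and 5 of the 9 genes had an unadjusted p under 0.05, beside 10.6% and 3.32% of all genes. Of all tested genes 0% and 0.00493% were called, and DESeq2 called 17 genes and 1 gene. The 95% interval for Cx3cr1 was 0.07 to 0.84 against pCtrl.

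Between the controls and between the tissues of PBS mice, the 9 genes did not differ beyond the test's threshold. In pCtrl against PBS, 0 of 9 were called by edgeR in either tissue and 0 had an unadjusted p under 0.05, with log2 fold changes of 0.02 to 0.18 in the hippocampus and from -0.07 to 0.22 in the cortex. The share of all genes called was 0.192% and 0%. In cortex against hippocampus of PBS mice, 0 of 9 were called and 0 had an unadjusted p under 0.05, with log2 differences of -0.05 (Olfml3) to 0.18 (Tmem119), whereas 26.7% of all genes were called. The widest 95% intervals, those of Gpr34, ran from -0.35 to 0.49, from -0.25 to 0.55 and from -0.34 to 0.47 in these 3 comparisons.

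The ratio of Cx3cr1 to P2ry12 within a library put the receptor that rose and the receptor with estimates below 0 side by side. It was 1.23 to 1.87 in the 9 control hippocampi and 5.09, 4.75, 2.91 and 1.93 in α-IgLON5#1 animals 8, 9, 16 and 17. In the cortex it was 1.26 to 1.72 in the 10 controls and 4.22, 4.22, 1.70 and 2.07 in the same animals. Animals 8 and 9 had the highest ratios in both tissues, and only the cortex of animal 16 lay within the range of the controls. The ratio was chosen after the values were seen and was not tested.

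**Figure D3:**
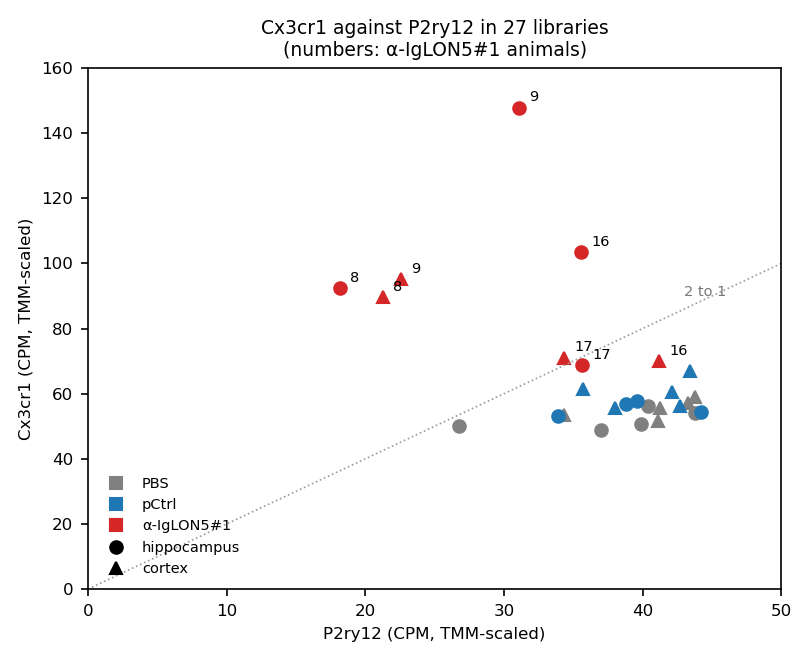
Cx3cr1 against P2ry12 in each of the 27 libraries, both in TMM-scaled CPM, with circles for hippocampus and triangles for cortex, colors for the treatments and numbers for the α-IgLON5#1 animals. The dotted line marks 2 CPM of Cx3cr1 per CPM of P2ry12, and the 19 control libraries lie below it with ratios of 1.23 to 1.87.

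In a bulk library, fewer cells of a type and less RNA per cell cannot be told apart. The 9 genes were set beside 14 other genes that microglia express (Csf1r, Aif1, C1qa, C1qb, C1qc, Itgam, Itgb2, Tyrobp, Trem2, Ctss, Laptm5, Cd68, Ptprc and Spi1), here called pan-microglia genes. These are no measure of cell number, since the complement genes, Cd68 and Ctss are among those that rise when microglia respond, and other leukocytes also express Ptprc, Itgam, Itgb2 and Spi1. All 14 rose in α-IgLON5#1 hippocampi against pCtrl and against PBS, with median log2 fold changes of 1.45 and 1.59. In the cortex 12 rose against pCtrl and 13 against PBS, with medians of 1.08 and 1.22. Those with the largest levels were the receptor Csf1r, the protease Ctss and the complement gene C1qa, at 0.72, 1.41 and 1.61 in the hippocampus, and Ctss, C1qa and C1qc at 1.02, 1.28 and 0.90 in the cortex.

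The 14 genes were also chosen with earlier results of these data known, so a place below their median is no independent result. Each of the 9 homeostatic genes had a log2 fold change below that median in all 4 comparisons, including those that did not pass the test. The differences from it ran from -0.56 (Cx3cr1) to -1.82 (P2ry12) in the hippocampus and from -0.64 (Cx3cr1) to -1.63 (Gpr34) in the cortex against pCtrl. The pan-microglia genes themselves ranged from 0.72 (Csf1r) to 1.97 (Ptprc) in the hippocampus and from 0.19 (Trem2) to 2.05 (Ptprc) in the cortex, and Csf1r and Trem2 were the 2 not called there. Cx3cr1 in both tissues and Olfml3 in the cortex lay within these ranges against pCtrl. Against PBS the lowest pan-microglia values were 0.87 in the hippocampus and 0.36 in the cortex, and Cx3cr1 and Olfml3 lay above them in both tissues. As mean log2 CPM per library, the 9 genes were above the 14 by 0.52 to 0.59 on average in the 4 control groups. In α-IgLON5#1 libraries the 9 were below the 14, by -0.58 ± 0.26 in the hippocampus and -0.52 ± 0.47 in the cortex (SD, n = 4). Single libraries ranged from -0.85 (animal 8) to -0.28 (animal 17) in the hippocampus and from -1.04 (animal 8) to -0.03 (animal 16) in the cortex, and all control libraries from 0.38 to 0.73.

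**Figure D4:**
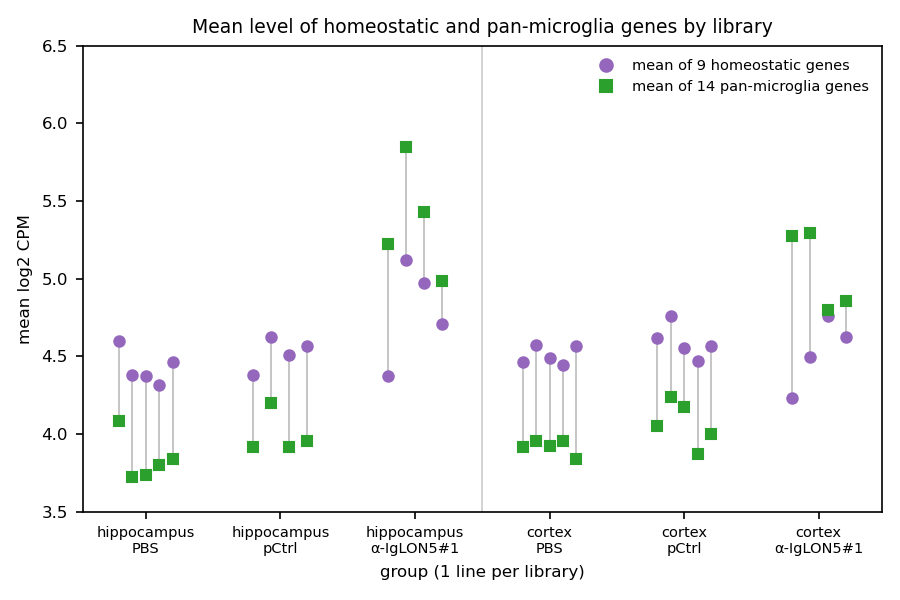
Mean log2 CPM of the 9 homeostatic genes (purple circles) and of the 14 pan-microglia genes (green squares) in each library, joined by a line, for the 6 groups. The circles lie above the squares in all 19 control libraries and below them in all 8 α-IgLON5#1 libraries, by as little as 0.03 in the cortex of animal 16.

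Of 21 other homeostatic microglia genes, 9 rose and 1 fell in α-IgLON5#1 hippocampi against pCtrl, with a median of 0.16. The log2 fold change was above 0 for 19 of the 21 in the hippocampus and for 13 in the cortex, against either control. Among those called with the largest levels were Csf1r and the Fc receptor-like Fcrls (0.69), and the fructose transporter Slc2a5 was the gene that fell, by 0.64 on the log2 scale, with -0.52 against PBS (adjusted p = 0.0817). In the cortex 4 of the 21 were called against pCtrl. Lpcat2 (0.87) and Siglece (2.28) rose, and Slc2a5 (-0.84) and the crystallin Crybb1 (-0.80) fell. Against PBS 9 rose and 0 fell in the hippocampus, and 5 rose and 2 fell in the cortex.

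Regulators of the microglial program moved in part. Of 12 transcription factors, 6 rose in the hippocampus against pCtrl, among them Cebpa (0.59) and Irf8 (1.38), and Mef2c, which neurons also express, fell by 0.65. Against PBS the log2 fold change of Mef2c was 0.04 (adjusted p = 0.951), and in pCtrl against PBS it was 0.69 (adjusted p = 0.0677). In the cortex Irf8 (0.92), Ikzf1 (1.06), Spi1 (1.47, encoding PU.1) and Runx1 (1.47) rose. Of 15 genes of TGF-beta signalling, the receptor Tgfbr2 (0.61), the ligand Tgfb1 (0.73) and Nrros (0.89), which anchors latent TGF-beta on microglia, rose in the hippocampus, and Smad2 fell by 0.22 against pCtrl, with -0.12 against PBS (adjusted p = 0.367). In the cortex Tgfbr2 (0.52), Tgfb1 (0.76) and Nrros (0.62) rose against pCtrl, and 0 fell. Against PBS, Tgfbr2 (0.57) and Tgfb1 (0.79) rose in the cortex, and Nrros was at 0.56 (adjusted p = 0.0914). The receptor Tgfbr1 and the mediators Smad3 and Smad4 had log2 fold changes of -0.08 to 0.16 in the 2 tissues and did not pass.

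Among 13 other genes of purinergic signalling, 4 rose in the hippocampus against pCtrl and 2 in the cortex, and against PBS 7 and 3 rose. In the hippocampus those against pCtrl were the ATP-gated channels P2rx4 (0.52) and P2rx7 (0.54), the UDP receptor P2ry6 (1.52) and the adenosine receptor Adora3 (1.39), and in the cortex P2rx4 (0.33) and P2ry6 (1.01). P2ry6 thus rose in both tissues, where P2ry12 had estimates below 0. Of 14 ligands and partners of the 9 genes, 12 were tested. Against pCtrl 3 were called higher in the hippocampus and 3 in the cortex, against PBS 3 and 4, and 0 were called lower. Cx3cl1, the ligand of Cx3cr1, had log2 fold changes of -0.06 and -0.28 in the hippocampus and cortex (adjusted p = 0.771 and 0.0921). The adaptor Tyrobp (1.29 and 0.92) and the shedding protease Adam17 (0.41 and 0.36) rose in both tissues, and Gcnt1, which builds the glycans by which Selplg binds selectins, rose in the hippocampus (0.77).

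Of 18 genes of disease-associated microglia, 12 rose in the hippocampus and 8 in the cortex against pCtrl, 10 and 9 rose against PBS, and 0 fell. Those called with the largest levels were the cathepsins Ctsb (0.18) and Ctsd (0.45) and B2m (1.21) in the hippocampus, and B2m (1.02), Tyrobp and the glycoprotein Gpnmb (0.75) in the cortex. This list shares Tyrobp and Trem2 with the pan-microglia list. The pan-microglia list also holds Csf1r of the other homeostatic genes, Spi1 of the regulators and Tyrobp of the partners, so these lists are not separate.

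Cx3cr1 and Selplg are also expressed by monocytes, and markers of other immune cells moved with the treatment. Of 8 markers of monocytes and neutrophils, only Ly6c2 was called in the hippocampus against pCtrl, at 10 to 51 counts against 1 to 7, and Ly6c2, Ccr2, Plac8 and Chil3 were called in the cortex. Against PBS 3 of the 8 were called higher in the hippocampus (Ly6c2, Ccr2 and Plac8) and 4 in the cortex. Their summed level was 3.88 to 26.4 CPM in α-IgLON5#1 hippocampi, 2.65 to 6.35 in pCtrl and 1.22 to 3.68 in PBS, and 3.38 to 40.8, 2.16 to 5.05 and 1.68 to 4.69 CPM in the cortices. The summed level of the 9 homeostatic genes was 250.6 to 411.1 CPM in α-IgLON5#1 hippocampi. Animal 9 had the highest hippocampal Cx3cr1 of all and 3.88 CPM of these markers, within the range of the pCtrl hippocampi. Its cortex also had the highest Cx3cr1 of all cortices, at 95.2 CPM, and 9.23 CPM of these markers, above all control cortices.

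Of 8 border macrophage markers, Ms4a7 (1.94) rose and the perivascular receptor Lyve1 fell by 1.81 in the hippocampus against pCtrl. Ms4a7 (1.97) and Siglec1 (2.13) rose and Lyve1 fell by 1.35 in the cortex. Against PBS 2 of the 8 were called higher and 1 lower in each tissue. The hippocampal median log2 fold change of the 8 was -0.64 against pCtrl and 0.14 against PBS. In hippocampal pCtrl against PBS all 8 were above 0 and 0 were called. Their sum was 7.26 to 41.7 CPM in α-IgLON5#1 hippocampi, 21.7 to 32.4 in pCtrl and 11.2 to 22.2 in PBS, and 9.92 to 50.4, 17.5 to 28.7 and 17.4 to 39.2 CPM in the cortices. Of 8 lymphocyte markers 5 were tested, and 3 were called in the hippocampus, among them Cd79a and Ms4a1, and Ms4a1 and Cd3g were called in the cortex. Against PBS 4 were called in the hippocampus and 1, Cd3g, in the cortex. The markers summed to 1.46 to 6.98 CPM in α-IgLON5#1 hippocampi and to 0.400 to 1.67 CPM in control hippocampi, and Ms4a1 was at 0 in 1 α-IgLON5#1 hippocampus. In the cortex the sums were 5.41 to 8.47 and 4.32 to 7.01 CPM. In PBS mice alone the median sum was 4.50 CPM in the cortex and 0.996 CPM in the hippocampus. Of the 5 tested markers 1 was called higher in PBS cortex than in PBS hippocampus, and the highest log2 difference was 4.01. The part of these cells in the levels of the 9 genes was not tested.

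The labels name the cells neurons, whereas the libraries are of whole dissected tissue. Neuron markers summed to 4823 to 7376 CPM per library, astrocyte markers to 951 to 1520, oligodendrocyte markers to 1363 to 3678 and endothelial markers to 87.2 to 138.5 CPM, so all of these cells were represented. The microglial identity of the signal rests on the 9 genes and the pan-microglia genes, which were detected in all 27 libraries.

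Around the group means, the 9 genes varied together in part. Deviations of log2 CPM from the 6 group means gave 36 pairs with a median Pearson's r of 0.40, from -0.23 to 0.85, and 32 pairs were above 0. These correlations are over 27 libraries that share mice between tissues and depth within a library, and no test was made. The strongest pairs were Siglech with Gpr34 (r = 0.85), P2ry12 with Gpr34 (0.84), Tmem119 with Siglech (0.79) and Tmem119 with Selplg (0.79). Cx3cr1 and Olfml3 had r of 0.68, at 0.83 within the hippocampus and 0.35 within the cortex, and P2ry12 had r of -0.18 and -0.17 with them. By tissue, the r of P2ry12 with Cx3cr1 was 0.05 in the hippocampus and -0.63 in the cortex, and that with Olfml3 -0.06 and -0.34. P2ry12 and its neighbor P2ry13 had r of 0.42.

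Part of this rested on animal 8. Without its 2 libraries the median was 0.34 with a highest r of 0.70, that of Cx3cr1 with Olfml3. The r of Siglech with Gpr34 was 0.64, that of P2ry12 with Gpr34 0.70, and that of P2ry12 with P2ry13 0.66. Other pairs were low, with r of 0.28 for Tmem119 with Gpr34, 0.11 for Sall1 with Gpr34, 0.32 for Sall1 with Siglech and 0.06 for P2ry12 with Tmem119. Tmem119 had r of 0.66 with Olfml3 and 0.58 with Cx3cr1, which were 0.45 and 0.34 with animal 8 included. Within the hippocampus alone the median was 0.55 with 32 of 36 pairs above 0 (13 libraries), and within the cortex 0.39 with 25 above 0 (14 libraries). In the cortex Cx3cr1 had r of -0.40 with Tmem119, -0.43 with Selplg and -0.47 with Sall1, where the hippocampus gave 0.66, 0.60 and 0.47. With CPM scaled to library totals in place of TMM, the median over 27 libraries was 0.29 with 27 pairs above 0.

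**Figure D5:**
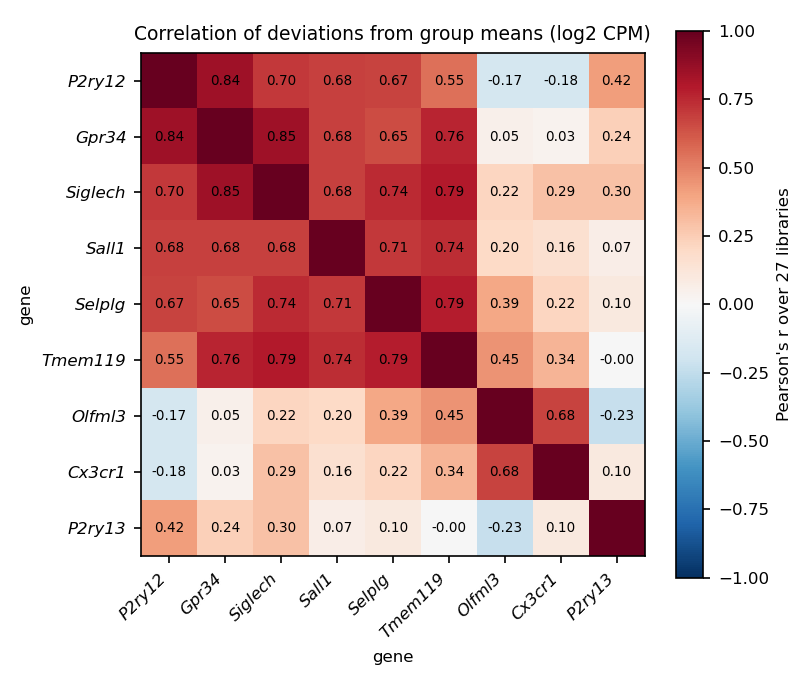
Pearson's r of each pair of the 9 genes over 27 libraries, computed on log2 CPM after subtracting the mean of each group, on a color scale from -1 to 1. P2ry12, Gpr34, Siglech, Sall1, Selplg and Tmem119 have r of 0.55 to 0.85 with each other over all 27 libraries, down to 0.06 without animal 8, and Cx3cr1 and Olfml3 have r of 0.68.

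The genes outside the set that varied most like each member differed between members. For Cx3cr1 they were Dock2 (r = 0.88), Ptpn6 (0.88) and Grn (0.86), and for Olfml3 the complement gene C1qb (0.79), Ncf1 (0.79) and Kcne1l (0.77), and these changed by less than 0.05 without animal 8. Siglech was followed by genes that included Trem2 (0.87) and 4933416E14Rik (0.81), Tmem119 by Itgb5 (0.85), Adap2 (0.84) and Slco2b1 (0.84), and Selplg by Vsir (0.88), Epb41l2 (0.88) and Rgs10 (0.83). P2ry12 was followed by Ap5m1 (0.90), Arhgap5 (0.81) and Id4 (0.81), and Gpr34 by Ap5m1 (0.85), 4933416E14Rik (0.83) and Cd33 (0.82). Sall1 was followed by Gm37160 (0.82), Gm37062 (0.80) and Cd33 (0.78), and P2ry13 by Ric3 (0.79), Rpusd3 (0.75) and Tfrc (0.75). Without animal 8 the r of Gpr34 with 4933416E14Rik was 0.40 and that of Sall1 with Gm37062 was 0.52, whereas that of Tmem119 with Slco2b1 was 0.89.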

How the data were processed

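RNA of dissected hippocampus and cortex was sequenced as stranded mRNA libraries, and the authors aligned reads with STAR to GRCm38. The counting program and its strand setting were not given in the sources used here. The authors deposited raw counts per gene, with 55487 genes in 27 libraries, and 55227 gene IDs matched GENCODE M21. The number in each label was taken as that of the mouse.

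A gene was kept where 4 or more libraries held 10 or more of its counts (20271 genes). TMM factors were computed and 1 quasi-likelihood model with 6 groups was fitted to all 27 libraries (edgeR 4.0.16, limma 3.58.1, R 4.3.3). Genes were called at a Benjamini-Hochberg adjusted p under 0.05 over all tested genes. CPM used TMM-scaled library sizes, and log2 CPM a prior count of 1. Intervals are 95% intervals from the t distribution with the degrees of freedom of the quasi-likelihood test. Tests were two-sided. Where nothing says more, p-values measure only the spread between these mice.

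The 9 genes and all gene lists were chosen with earlier results of these data known. The text names all 9 genes, the called members of each list with the highest mean level, and the 3 genes outside the set with the highest r to each member. Some genes that this rule names are not reported here. Other names were chosen after their values were seen. Libraries with 1 number were taken as of the same mouse, but the main model held no term for the mouse. Its tests between tissues and of the interaction were therefore unpaired, and the mouse entered as a block in an alternative. The deviations of such libraries from the group means correlated with r of -0.05 to 0.44 over 13 mice (median 0.19, above 0.1 in 8). No 2 libraries of a group agreed within sampling noise (lowest chi-square per degree of freedom 4.82 over 48 pairs). On simulated counts for α-IgLON5#1 against pCtrl in the hippocampus, with 20271 genes, 62.7%, 89.6% and 98.5% of genes changed 1.5-fold, 2-fold and 4-fold were recovered. Alternatives were DESeq2 1.42.0, other scaling, other count filters, fewer groups, a tissue composition score, a fold above 2, animals 8 to 17, the mouse as a block, and leaving out each library.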

Additional observations from a re-analysis of the deposited data

Results flagged for a closer look

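Of 54 groups of 4 or 5 libraries, 4 held a library far from the others of its group by Dixon's criterion, and chance marks about 1 in 20. In the PBS cortices, animal 38 had the lowest P2ry12, at 34.3 CPM with the nearest library at 41.1. The same library had the highest Tmem119, at 24.1 CPM with the nearest at 22.3, and the highest Olfml3, at 26.04 CPM with the nearest at 20.4. In the pCtrl cortices, animal 11 had the highest Siglech, at 21.8 CPM with the nearest at 16.2, and this library was the shallowest of all with 1.94e+07 counts. Without PBS animal 38 the cortical call of Olfml3 against PBS was kept (adjusted p = 0.0014, edgeR).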

How the results depend on the processing

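Of the counts of genes called among the 9, 279 recomputed values stayed within 1.5 times the reported one and 15 did not. In the hippocampus against pCtrl, 3 genes called higher became 0 with a fold above 2, 1 with the tissue composition score and 0 with animals 8 to 17 only. Against PBS, 3 became 0 with a fold above 2 and 6 without animal 8. In the cortex against pCtrl, 0 called higher became 1 with at least 1 count in all libraries together and 1 with DESeq2. Leaving out 1 library gave 0 to 1 called higher and 0 to 1 called lower. In the cortex against PBS, 2 called higher became 0 with a fold above 2 and 1 without animal 8, and leaving out 1 library gave 1 to 2 higher and 0 to 1 lower. The causes were not tested. The shares of all genes called with the composition score and with animals 8 to 17 are not given here. These losses can therefore not be told apart from fewer calls over all genes. Of single-gene values, 1150 kept their direction and side of the threshold, 34 changed sign, 11 lost and 11 gained a call. Without animal 8, Gpr34 was 0.050 against pCtrl and 0.12 against PBS in the hippocampus, and in the cortex Sall1 was 0.065 and Selplg 0.047 against pCtrl and Siglech 0.059 against PBS. With the composition score, P2ry13 was -0.048 and Sall1 0.0018 in the cortex against pCtrl, and Sall1 was -0.0017 between tissues of PBS mice. With at least 10 counts in every library the last was -0.0051. Leaving out 1 library, hippocampal Gpr34 ranged from -0.29 to 0.050 against pCtrl and from -0.22 to 0.12 against PBS. Cortical values against pCtrl ranged from -0.068 to 0.061 for P2ry13, -0.15 to 0.065 for Sall1 and -0.25 to 0.047 for Selplg, and against PBS from -0.11 to 0.050 for P2ry13, -0.10 to 0.059 for Siglech and -0.14 to 0.15 for Selplg. Between tissues Sall1 ranged from -0.020 to 0.045 and Gpr34 from -0.0057 to 0.15, and the P2ry12 interaction against pCtrl from -0.071 to 0.25. DESeq2 called 493 of all genes in hippocampal pCtrl against PBS where edgeR called 39, and 17 against 0 for the interaction against pCtrl. With the mouse as a replicate block, 5925 genes differed between tissues of PBS mice against 5420 without it, and the interactions called 2 and 2 against 0 and 1. The block changed no call of the 9 genes.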
